A study of Solanum lycopersicum with 6 samples.

Results

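The miR166 family comprised 3 of the 137 mature tomato miRNA entries counted in green-stage fruit, taken as every entry of the deposited table whose name begins with sly-miR166: miR166a, miR166c-3p and miR166c-5p. All 3 had enough counts to be tested, out of 99 tested entries. The gene table of assembly SLM_r2.1 holds 3 precursor genes of this name, MIR166a, MIR166b and MIR166c. miR166b has no entry among the 3 counted, so it was not analysed here.

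miR166 guides the cleavage of mRNAs of the class III homeodomain-leucine zipper (HD-ZIP III) transcription factors, of which REVOLUTA, PHABULOSA and PHAVOLUTA are known from Arabidopsis. These factors specify the upper (adaxial) side of leaves and carpels, pattern vascular tissue and maintain the shoot meristem, and miR166 confines them by removing their mRNA from the lower side. The precursor folds into a hairpin with a 5p and a 3p arm. In this family the arm that acts on HD-ZIP III mRNAs is the 3p arm, and the 5p arm is its partner strand (the passenger, or star, strand). No HD-ZIP III mRNA was measured here.

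Small RNA was sequenced from fruit of tomato (Solanum lycopersicum) at the green stage, from plants kept at 25 °C for 12 h of light and 20 °C for 12 h of darkness. Every plant had liquid fertilizer as a seedling and distilled water alone in pots until it flowered. After flowering, the 3 control libraries came from pots that alternated between fertilizer (diluted 500-fold) and water from one day to the next, and the 3 drought libraries came from pots given the same fertilizer a single time each week, so that fertilizer and water were both reduced under drought. The labels do not name the cultivar or the fruit's age, nor whether different plants gave the libraries of a group. The spread behind each p-value may therefore be technical only, and in whole fruit fewer cells that make a miRNA cannot be told apart from less miRNA per cell.

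Counts per library summed to between 644434 and 749332 in control and between 430732 and 468711 in drought. Scaling factors (TMM, trimmed mean of M-values) lay between 0.848 and 1.003 in 5 libraries, and drought library 2 stood apart at 1.35. CPM below means counts per 1e+06 scaled miRNA counts, and a percent of counts uses the unscaled library total. Fold changes of the miR166 entries and of their sum, and the arm ratio of miR166c, are given with and without drought library 2. Spread without it is given for miR166c-5p and the arm ratio of miR166c only. Likeness of pattern between entries was not computed without it.

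miR166a, a form of the arm that acts on HD-ZIP III mRNAs, was the third most abundant tested entry by mean CPM. It held 73415, 87614 and 94683 CPM in control libraries 1, 2 and 3, and 108534, 77976 and 109682 CPM in drought libraries 1, 2 and 3. Drought libraries 1 and 3 were above all controls, while drought library 2 lay between the controls, so the groups overlapped. The mean was 85237 ± 10831 CPM in control and 98731 ± 17983 CPM in drought (SD, n = 3 each). The log2 fold change was 0.21 ± 0.31 (SE; 95% interval -0.49 to 0.91; quasi-likelihood test of edgeR with Benjamini-Hochberg adjustment, adjusted p = 0.636), which did not pass the threshold of 0.05.

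The order of the libraries for miR166a depended on the scale. As a percent of the library's counts it took 6.67%, 8.79% and 9.12% in control and 9.20%, 10.5% and 10.9% in drought, and on this scale all 3 drought libraries were above all 3 control libraries. The nearest values, 9.12% in control library 3 (95% exact binomial interval 9.05% to 9.18%) and 9.20% in drought library 1 (9.12% to 9.29%), had intervals that overlapped. Intervals cover counting error only. Of the 99 tested entries, 25.3% were above all controls on this scale and 41.4% were above or below them. The groups were also separate with upper-quartile scaling (71240 to 88881 CPM in control, 89887 to 119517 in drought), but not with RLE size factors. The edgeR fit with library totals alone gave a log2 fold change of 0.32 (adjusted p = 0.505).

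miR166c-3p, the corresponding arm of the MIR166c precursor, was higher in all drought libraries than in any control library. It held 21615, 21947 and 21659 CPM in control libraries 1, 2 and 3, and 42859, 32152 and 30380 CPM in drought libraries 1, 2 and 3. The lowest drought library was above the highest control library, and drought library 1 was the highest. The mean was 21741 ± 180 CPM in control and 35130 ± 6751 CPM in drought (SD, n = 3 each), 1.62-fold apart. The log2 fold change was 0.69 ± 0.30 (95% interval 0.03 to 1.35; unadjusted p = 0.0415), and it did not pass after adjustment over all tested entries (edgeR adjusted p = 0.128). Separation of this kind was common: the 3 drought libraries lay above all controls in 18.2% of the 99 tested entries, and above or below them in 37.4%.

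The separation of miR166c-3p held on each scale computed. As a percent of counts it took 1.96%, 2.20% and 2.09% in control and 3.63%, 4.34% and 3.02% in drought. With upper-quartile scaling it spanned 18980 to 20975 CPM in control and 33105 to 43312 in drought, and with RLE size factors 21353 to 22758 in control and 29174 to 37596 in drought. Upper-quartile scaling was the 1 setting of 13 in which it passed (log2 fold change 0.91, edgeR adjusted p = 0.0480). Its adjusted p over the 13 went up to 0.333, and 26.3% of all tested entries passed with that scaling. It moved the median of the log2 fold changes over the whole set of tested entries from 0.16 to 0.40. Relative to the median, miR166c-3p stood at 0.54 with TMM and at 0.51 with upper-quartile scaling. The authors' deposited table gives miR166c-3p a fold change of 1.65 and an FDR p-value of 0.0556.

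**Figure D1:**
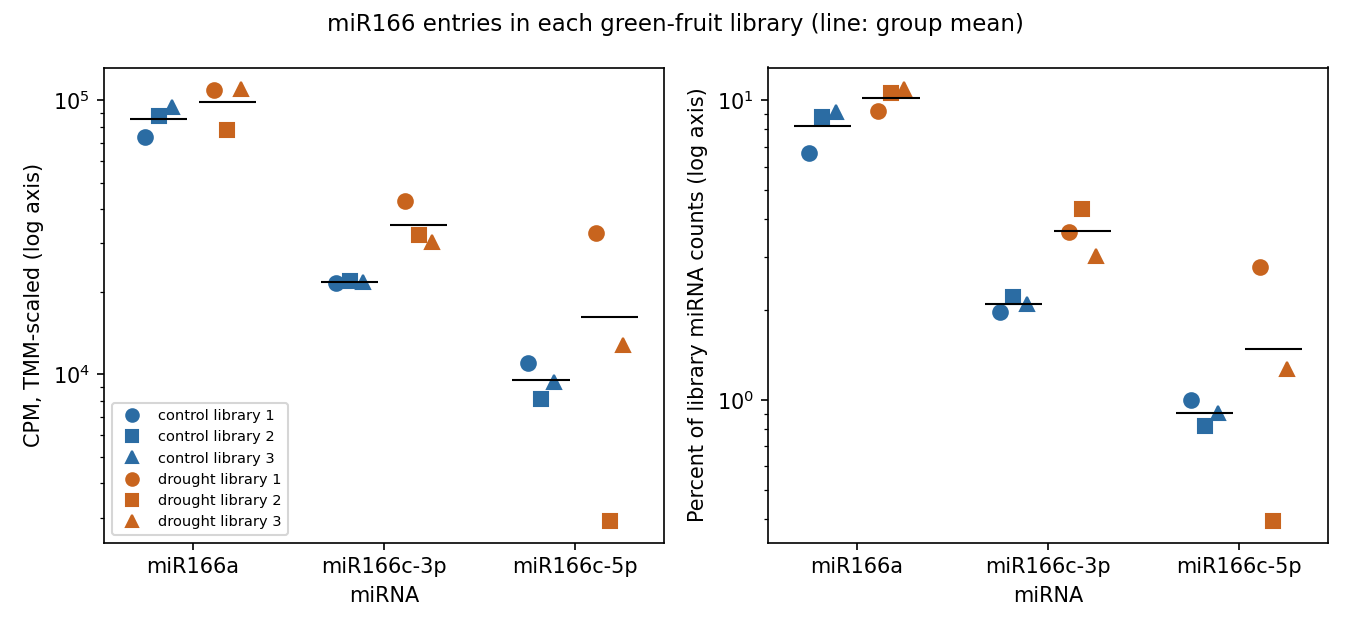
Level of each miR166 entry in each library, as TMM-scaled CPM (left) and as a percent of the library's miRNA counts (right), both on log axes. Points are libraries, shaped by replicate number, and lines are group means. miR166c-3p drought libraries sit above all controls in both panels, miR166a drought libraries do so only on the right, and miR166c-5p in drought runs from 2919 to 32826 CPM.

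miR166c-5p, the partner strand, differed far more between the drought libraries than between the controls. It held 11019, 8150 and 9360 CPM in control libraries 1, 2 and 3, and 32826, 2919 and 12749 CPM in drought libraries 1, 2 and 3. Drought library 1 was the highest of the 6 libraries and drought library 2 the lowest, with the controls between them, so the groups overlapped. In TMM-scaled CPM the highest drought library held 11.2 times the level of the lowest, against 1.35 times in control. Drought libraries 1 and 3 alone were 2.57-fold apart. The size of this span depended on the scaling. On unscaled totals the range was 3946 to 27840 CPM in drought and 8176 to 10017 in control. With RLE size factors it was 3265 to 28795 in drought and 8451 to 10885 in control, and with upper-quartile scaling 3365 to 33173 and 7048 to 10692. On average it stood at 9510 ± 1440 CPM (control) and 16165 ± 15243 CPM (drought; SD, n = 3 each). Its log2 fold change was 0.77 ± 0.66 (95% interval -0.72 to 2.25; edgeR adjusted p = 0.410), which did not pass.

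The direction of miR166c-5p rested on single drought libraries. Without drought replicate 2 it stood at 1.12 ± 0.36 on the log2 scale and passed (edgeR adjusted p = 0.00607), in a fit where 40.6% of 101 tested entries passed. Without drought replicate 1 it was -0.24 ± 0.51 (edgeR adjusted p = 0.786). Over all 13 other settings the adjusted p ran from 0.00607 to 0.822, and in none but the fit without drought replicate 2 did it pass. The values for miR166a and miR166c-3p stayed positive in all 6 fits that left out 1 library. They ran from 0.12 to 0.35 and from 0.58 to 0.84, and neither entry passed in any of these fits. Without drought replicate 2 they were 0.20 ± 0.36 for miR166a and 0.60 ± 0.36 for miR166c-3p.

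**Figure D2:**
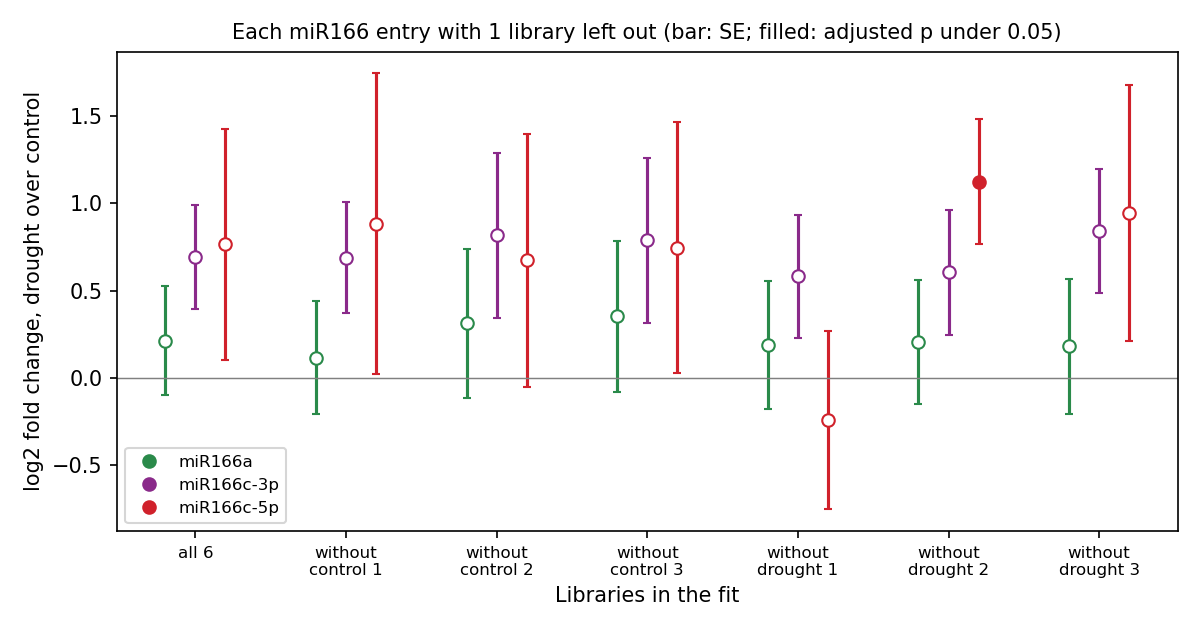
Log2 fold change (drought over control) of the 3 miR166 entries in the edgeR fit on all 6 libraries and in the 6 fits that leave out 1 library; bars are standard errors and filled points passed an adjusted p of 0.05. The filled point is miR166c-5p without drought replicate 2, at 1.12, and miR166c-5p without drought replicate 1 is the point below 0, at -0.24.

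Counting error was small beside the spread of miR166c-5p. The smallest count of any miR166 entry was 1849, of miR166c-5p in drought library 2, where counting alone gives a coefficient of variation (CV, the SD as a percent of the mean) of 2.33%. The CV of miR166c-5p among drought libraries was 94.3% in TMM-scaled CPM, and 1 of the 99 tested entries, miR10528, had a higher one. Without drought library 2 it was 62.3%, over 2 libraries. Its CV among controls, 15.1%, was below the median of all tested entries, 27.8%. The drought CVs of miR166a and miR166c-3p were 18.2% and 19.2%, both below the drought median of 39.1%. Neither was computed without drought library 2. In that library miR166a held 77976 CPM, against 108534 and 109682 CPM in drought libraries 1 and 3. For miR166c-3p the control CV was 0.829%, the lowest of all 99 tested entries and of the size of its counting error, which was at most 0.877%. That depended on the scaling: its control CV was 5.68% on unscaled totals, 5.07% after upper-quartile scaling and 3.32% after RLE scaling, where 1, 5 and 1 tested entries had a lower one.

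With 0 of 3 entries passing in the edgeR test, 0 rose and 0 fell, where 20.2% of the 99 tested entries passed (9.09% as rises and 11.1% as falls). Of the 3, miR166c-3p had an unadjusted p under 0.05, as did 34.3% of all tested entries, and DESeq2 also called 0 of the 3. All 3 log2 fold changes were positive, as were those of 53 of the 99 tested entries, with a median of 0.69 against 0.16 for all tested entries.

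**Figure D3:**
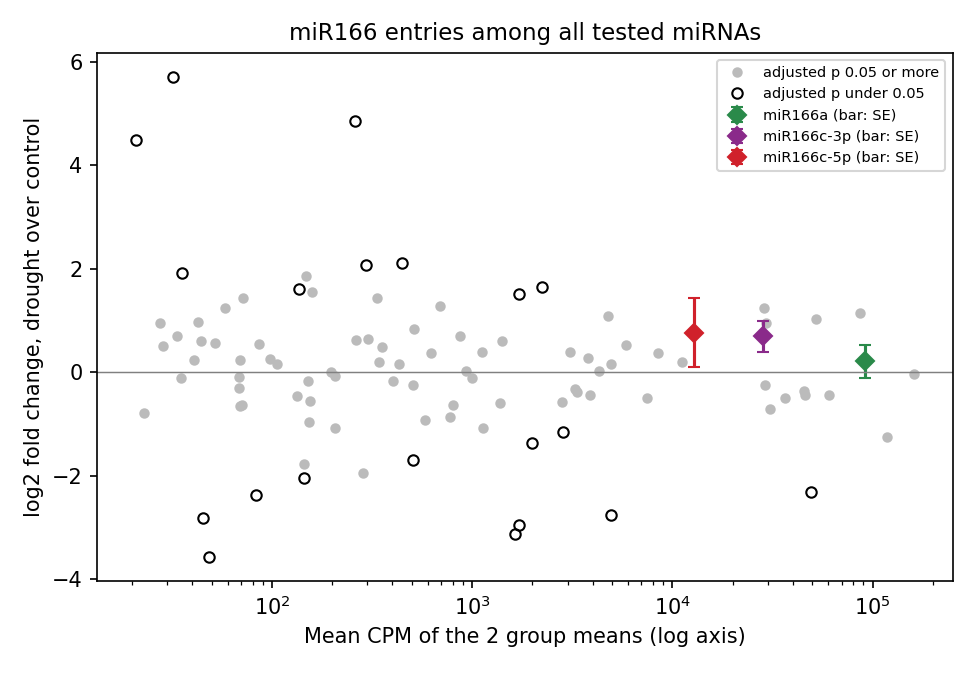
Log2 fold change (drought over control) against the mean CPM (log axis) for the 99 tested miRNAs, with open circles for the 20 that passed an adjusted p of 0.05. The 3 miR166 entries (diamonds, bars are standard errors) lie at the abundant end, at 0.21, 0.69 and 0.77.

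The members were also summed, because reads that match more than 1 member may have been given to any of them. The sum took 9.64%, 11.8% and 12.1% of the counts in control libraries 1, 2 and 3, and 15.6%, 15.3% and 15.2% in drought libraries 1, 2 and 3. On this scale all drought libraries were above all controls, as they were for 28.8% of the 52 families tested. miR166 had rank 1 among the families by count in drought library 1 and rank 2 in drought libraries 2 and 3. In control it had rank 5 in library 1 and rank 4 in libraries 2 and 3. Adapter ligation is known to prefer certain RNA ends, so these ranks describe counts and not amounts of RNA. In scaled CPM the sum was 104774, 121671 and 128155 in control and 169811, 108393 and 165988 in drought. Here drought library 2 lay below control libraries 2 and 3 and the groups overlapped. The log2 fold change of the sum in the fit over 52 families was 0.32 ± 0.37 (SE), and 0.34 ± 0.28 without drought replicate 2, a description given with no test.

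The make-up of the family varied between libraries. miR166a supplied 69.2%, 74.4% and 75.3% of the family's counts in control and 58.9%, 69.0% and 71.8% in drought. There were 3.40, 3.99 and 4.37 counts of miR166a for each count of miR166c-3p in control, and 2.53, 2.43 and 3.61 in drought. Drought libraries 1 and 2 were below all controls in this ratio and drought library 3 lay among them. The miR166a and miR166c-3p sequences were not compared here, so how many reads could match both is not known.

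Within the MIR166c precursor, the division of counts between the arms was similar in the controls and differed between the drought libraries. The 5p arm supplied 33.8%, 27.1% and 30.2% of the counts of both arms in control libraries 1, 2 and 3. It supplied 43.4% in drought library 1 (95% exact binomial interval 42.8% to 44.0%), 8.32% in drought library 2 (7.96% to 8.70%) and 29.6% in drought library 3 (28.9% to 30.2%). Drought library 1 was above all controls, drought library 2 below them and drought library 3 among them. The mean share was 30.3% ± 3.35 (SD, n = 3) for the controls against 27.1% ± 17.7 (SD, n = 3) for the drought libraries. They did not differ beyond the spread in a two-sided exact permutation test (p = 0.8, where 0.1 is the smallest that 3 against 3 allows).

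A test of the arm ratio, in which library scaling cancels, was fitted over the 19 precursors with both arms tested. The log2 ratio of 5p to 3p counts of miR166c was -1.20 on average in control and -1.70 in drought, a difference of -0.50 ± 0.72 (SE; limma adjusted p = 0.696). Its direction turned without drought replicate 2 (0.39 ± 0.46, limma adjusted p = 0.598) and it was -1.15 ± 0.60 without drought replicate 1 (limma adjusted p = 0.256). In the fit without drought replicate 1 all 19 precursors had the same standard error. That error and its p therefore do not measure the spread of miR166c itself. In the fit on all 6 libraries 1 of the 19 precursors passed, which is 5.26%. In 21.1% the 3 drought libraries lay on one side of all controls, which those of miR166c did not. The precursor that passed was miR171b, of a family that regulates GRAS transcription factors (limma adjusted p = 0.0237). Its 5p arm had 2, 1 and 0 counts in control and 21, 10 and 21 in drought, and passed the filter on low counts through the drought libraries alone, so its ratio in control rests on the 0.5 added to each count. It did not pass without control replicate 1 (limma adjusted p = 0.0847), control replicate 3 (0.126) or drought replicate 3 (0.128). The other 2 with the largest changes, miR482e at 1.74 ± 0.50 (limma adjusted p = 0.0525) and miR396a at -1.31 ± 0.71 (0.453), did not pass, though both did without drought replicate 2 (limma adjusted p = 0.00899 and 0.0310).

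The log2 arm ratio of miR166c spanned 3.08 among the drought libraries, second of 19 after miR9474 at 3.34, and 0.457 among the controls, the 16th of 19. Without drought library 2 the drought span was 0.868. Taking for each of the 19 precursors the arm with fewer counts over all 6 libraries, miR166c-5p and miR396a-3p together supplied most of the counts of these arms in each library. In drought library 1 itself, miR396a-3p held 75.1% of the counts of its precursor. The 19 arms took 3.80%, 3.79% and 3.58% of the counts in control and 10.6%, 3.01% and 5.45% in drought libraries 1, 2 and 3. Without miR166c-5p these values were 2.80%, 2.97% and 2.68%, and 7.82%, 2.61% and 4.18%. Without miR396a-3p as well, they were 0.900%, 1.37% and 1.27% in control and 1.02%, 1.15% and 1.17% in drought, so that drought library 1 lay among the controls. Among the other 18 precursors, the share of that arm was above all controls for 10, 8 and 9 in drought libraries 1, 2 and 3, and below all controls for 2, 4 and 3.

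**Figure D4:**
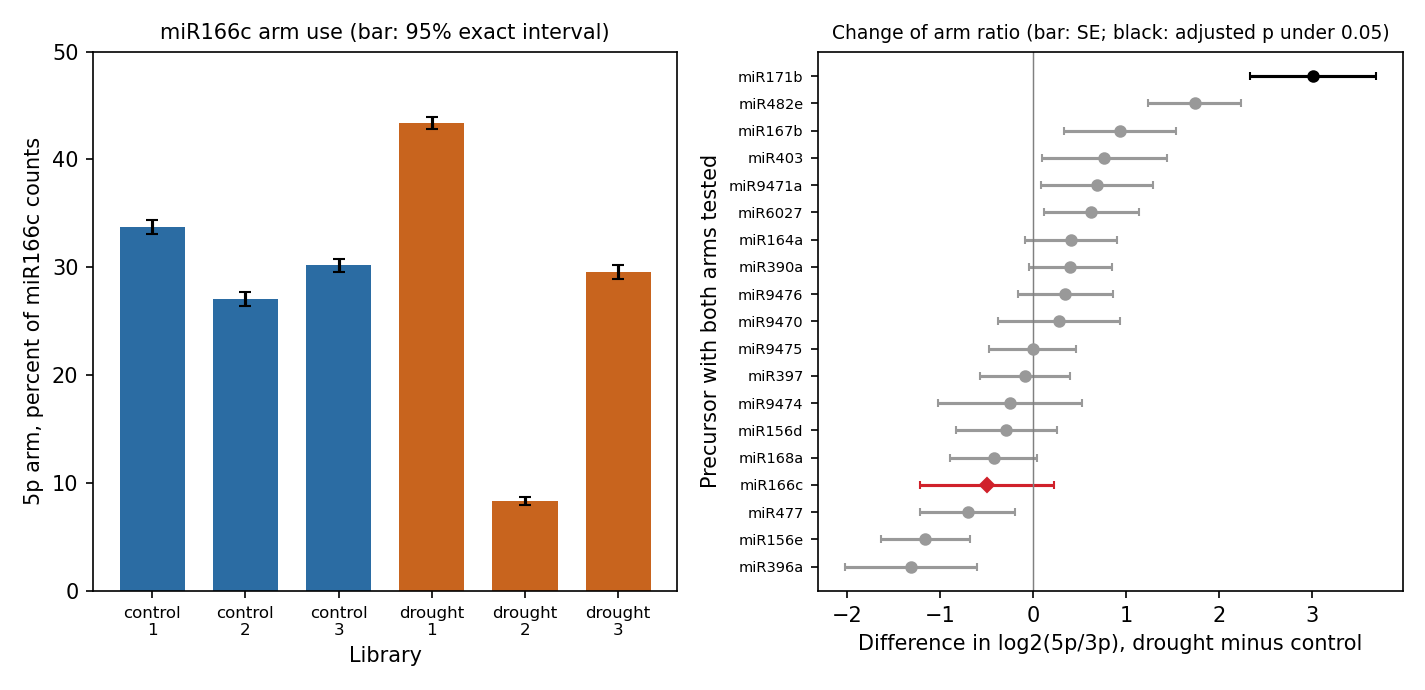
Left, the 5p arm as a percent of the counts of both miR166c arms in each library, with 95% exact binomial intervals; drought library 2 is the low bar at 8.32% and drought library 1 the high one at 43.4%. Right, the difference in log2(5p/3p) between drought and control for the 19 precursors with both arms tested (bars are standard errors), with miR166c in red at -0.50 and miR171b, which passed on few control counts, in black.

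The entries nearest in pattern to each miR166 entry were sought among the 96 tested entries of other families only. Likeness was measured as the root mean square difference between log2 CPM values over the 6 libraries after each entry was centred on its mean. It was 0.32 between miR166a and miR166c-3p, 0.90 between miR166a and miR166c-5p, and 0.96 between the arms of miR166c. The 96 tested entries of other families had a median of 0.64 from miR166a, 0.67 from miR166c-3p and 1.09 from miR166c-5p. The nearest to miR166a were miR168a-5p (0.18), which targets ARGONAUTE1, miR5300 (0.19), which targets NB-LRR resistance genes in tomato, and miR10534 (0.22). The nearest to miR166c-3p were miR9476-5p (0.16), miR172d (0.19), which targets AP2-like factors, and miR10538 (0.23), of which miR9476-5p rested on 25 to 38 counts per library.

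The nearest entries to miR166c-5p were miR396a-3p (0.39), miR7981c (0.39) and miR6027-5p (0.48). miR396a-3p is the partner strand of miR396a-5p, which targets growth-regulating factors. It held 20914, 15930 and 14673 CPM in control and 80179, 10822 and 30282 CPM in drought libraries 1, 2 and 3. miR7981c held 414, 350 and 445 CPM in control and 1752, 227 and 954 CPM in drought. miR6027-5p held 7076, 7754 and 7431 CPM in control and 14855, 3933 and 10098 CPM in drought. The 3 were picked for likeness to miR166c-5p over these same 6 libraries, so a shared order of libraries was largely set by the choice. The share of all tested entries with that order was not computed. In TMM-scaled CPM all 3 had drought library 1 as their highest and drought library 2 as their lowest library, as miR166c-5p did. As a percent of counts this held for miR166c-5p, miR7981c and miR6027-5p, while miR396a-3p was lowest in control library 3 (1.41%, against 1.46% in drought library 2).

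A list held 30 tested members of families that regulate other transcription factors (miR156, miR159, miR160, miR164, miR167, miR169, miR171, miR172, miR319 and miR396). Of these, 10 fell and 1 rose in the edgeR test, with a median log2 fold change of -0.63. Of all tested entries 11.1% fell and 9.09% rose. These shares include the list itself: all 99 tested entries held 11 falls and 9 rises. The list was chosen with earlier results of these data known, and arms of 1 precursor count separately. The 10 falls of the list ran from -3.56 to -1.36. They were both arms of miR164a, both arms of miR167b, miR156a, miR156d-5p, miR156d-3p, miR156e-5p, miR159b and miR172c. The rise was miR171b-5p, on the few counts given above. Both miR167b arms passed the filter on low counts through the control libraries. Mean CPM was 90.1 in control and 7.05 in drought for miR167b-3p, and 80.1 and 10.6 for miR167b-5p. Their estimates, which include the -3.56 of miR167b-3p, rest on few drought counts. miR156d-3p was also low in drought, at 27.7 ± 22.2 CPM against 139 ± 67.9 CPM in control (SD, n = 3 each; edgeR adjusted p = 0.0428). Of the falls, miR159b was the entry closest to miR166a in control CPM, at 81730 ± 21064 CPM (control) and 16422 ± 9307 CPM (drought; SD, n = 3 each). Without control replicate 2 the list held 5 falls; in the other 5 fits that left out 1 library it held 8 to 13 falls, and the rises were 1 or 2 in all 6. The list of miRNAs that share regulatory partners with miR166 held miR390, whose target yields the small RNAs that repress auxin response factors on the upper side of the leaf, and miR162, miR168 and miR403 of the small RNA machinery. Of its 9 tested members 1 fell, miR403-3p, which targets an ARGONAUTE gene, at -1.16 ± 0.35 (edgeR adjusted p = 0.0428), 0 rose, and the median was -0.11. The other 8 did not pass. Of these miR162, which targets the Dicer-like gene of miRNA processing, held 165465 ± 45977 CPM in control and 69584 ± 41901 CPM in drought (SD, n = 3 each), with all drought libraries below all controls, and stood at -1.25 ± 0.54 (edgeR adjusted p = 0.128). The miR168 entries stood at 0.03 ± 0.27 (miR168a-5p), 0.40 ± 0.33 (miR168a-3p) and -0.37 ± 0.42 (miR168b-3p). The miR390 entries stood at 0.25 ± 0.46 (miR390a-5p), -0.11 ± 0.46 (miR390a-3p) and 0.61 ± 0.45 (miR390b-5p), and miR403-5p at -0.16 ± 0.58. The fall of miR403-3p was no longer past the threshold with control replicate 2 left out (edgeR adjusted p = 0.358), nor without control replicate 3 (0.208), drought replicate 1 (0.115) or drought replicate 3 (0.105). The call was also lost with library totals alone (0.0875), upper-quartile scaling (0.0831), no filter (0.0633) and the replicate block (0.0675). With library totals alone the list still held 1 fall, of another member. It held 2 falls with DESeq2 and 2 without drought replicate 2, miR403-3p among them in each.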

How the data were processed

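Small RNA libraries were made from 240 ng of total RNA with a NEBNext Multiplex kit for small RNA (labels' protocols). The authors deposited 1 table of whole-number counts per mature miRNA in each of 6 libraries, with no normalization, per the file headers. It also holds the authors' CPM values, which were not used because some columns sum to more than 1e+06, and their fold change and p-values, whose test the header does not name. No source used here names the trimmer, the aligner, the genome build or how reads matching several miRNAs were counted. The deposited fold values quoted are named as the authors'.

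The test was the robust quasi-likelihood test of edgeR 4.0.16 (R 4.3.3), two-sided, with the group as sole term, after filterByExpr (minimum count 10, minimum total 15), which kept 99 entries with 99.98% of the counts, and TMM scaling. The common BCV (biological coefficient of variation) was 0.393. Benjamini-Hochberg adjustment ran over all tested entries, and the standard error is the log2 fold change divided by the square root of F. Log2 CPM used a prior count of 2. Arm ratios, log2 of 5p over 3p counts with 0.5 added to each, were tested with limma 3.58.1 over 19 precursors. DESeq2 1.42.0, other scalings, no filter, a replicate block, a non-robust fit and fits without 1 library were the alternatives. The tests were run on simulated data with planted changes larger than any miR166 estimate and the same dispersion for every miRNA. That check does not bear on changes of the size estimated for miR166. No 2 libraries agreed within sampling noise (chi-square per degree of freedom at least 50.1 over 15 pairs). Entries were named by rule: all miR166 entries, the 3 nearest in pattern to each, list members past the threshold, tested small RNA partners, and the 3 precursors with the largest absolute change of arm ratio. miR10528 and miR9474 were named after their values were seen. The members and lists were chosen with earlier results of these data known.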

Additional observations from a re-analysis of the deposited data

How the results depend on the processing

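Values of miR166a kept a positive sign and did not pass in any of 13 other settings (log2 fold change 0.12 to 0.44). miR166c-3p ran from 0.58 to 0.91 and passed with upper-quartile scaling (0.91), while miR166c-5p ran from -0.24 without drought replicate 1 to 1.12 without drought replicate 2, where it passed. Leaving out 1 library gave 0.12 to 0.35 for miR166a, 0.58 to 0.84 for miR166c-3p, -0.24 to 1.12 for miR166c-5p, -1.15 to 0.39 for the log2 arm ratio of miR166c, which turned positive without drought replicate 2 (0.39), and -11.4 to 6.13 percentage points for the difference in its 5p share, which turned positive there too (6.13). The log2 fold change of the family sum was 0.32, moved to 0.84 with upper-quartile scaling and was 0.18 without the less abundant arms, and its percent of counts was 3.40 to 4.63 points higher in drought when 1 library was left out and 3.76 when the 5 most abundant other miRNAs were left out of the total. The count of called miRNAs, 20 in all, was 9 to 41 without 1 library (9 without control replicate 2, 13 without control replicate 3 and 41 without drought replicate 2) and 12 with the replicate block. Same-numbered libraries of the groups did not deviate together (correlations over 99 miRNAs of 0.10, -0.24 and 0.01 for numbers 1, 2 and 3), so the numbers are not taken as pairs; with the replicate block the log2 fold changes were 0.20, 0.68 and 0.21 for miR166a, miR166c-3p and miR166c-5p and -0.50 for the arm ratio, and none passed. Adding miR166a to the 3p arm, chosen after seeing the data, gave -0.14 for the arm ratio. The alternatives planned for miR166b were not run, as it had no entry. The causes of these shifts were not tested. Depth limits entries with few counts, such as miR171b-5p with 2, 1 and 0 in control, while each miR166 entry had at least 1849 counts per library.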
